A study of Homo sapiens with 6 samples.

Results

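The genes described are the inhibitors of cyclin-dependent kinases (CDKs), their downstream target RB1, and MTAP, the gene that lies beside CDKN2A on chromosome 9. They were chosen by name: every probe set (a group of probes that together read a transcript) was taken whose only gene symbol in the platform annotation is CDKN1A, CDKN1B, CDKN1C, CDKN2A, CDKN2B, CDKN2C, CDKN2D, MTAP or RB1. This gave 20 probe sets of 22215 and 8 of the 9 genes, out of 11963 genes named on the array. CDKN2C was not analysed here. The samples were total RNA on single-colour Affymetrix arrays from HSC2 cells by their label, a human line established from an oral squamous carcinoma, 3 arrays of cells carrying a stably transfected cDNA for full-length wild-type MALT1 and 3 of cells carrying the vector alone, called mock. Both were grown in DMEM with fetal bovine serum and antibiotics. The sources used here do not give whether a transfected line is a clone or a pool, nor whether the 3 samples of a group were separate cultures. The p-values therefore reflect the scatter of these 3 samples a group, which could be technical. In such bulk RNA, fewer cells of a type and less RNA per cell cannot be told apart. MALT1 is a paracaspase of NF-kappaB signalling, and the comparison was designed to find genes that respond to it.

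Progress from G1 into S phase depends on CDK4 and CDK6 with D cyclins and on CDK2 with cyclin E, which phosphorylate the retinoblastoma protein RB1 and so free E2F transcription factors. CDK inhibitors of the INK4 family (CDKN2A, CDKN2B, CDKN2C, CDKN2D) bind CDK4 and CDK6, whereas those of the CIP/KIP family (CDKN1A, CDKN1B, CDKN1C) bind cyclin-CDK complexes more widely. CDKN2A encodes p16INK4a and, from a separate first exon, the MDM2 antagonist ARF. MTAP recovers methionine and adenine from a by-product of polyamine synthesis, and its gene is often lost together with CDKN2A in squamous carcinomas and other tumours.

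The promoter windows of the genes with the largest differences, MTAP, CDKN2A and CDKN1A, are shown. In their brightest probe sets, MTAP and CDKN2A were lower on the MALT1-labelled arrays by about the same factor and CDKN1A was higher. Not every probe set gave that factor: CDKN2A fell 2.44-fold in 209644_x_at, and MTAP 211364_at read about the same in both groups. RefSeq (GRCh38.p14) gave windows from 250 bases before to 50 bases after a transcript start for 7 of the 8 measured genes. CDKN2A has 2 such starts, of which the upstream one is that of ARF and the downstream one that of p16INK4a. Capitals mark GC boxes (GGGCGG or its reverse complement CCGCCC), and bases run 5′ to 3′ on the strand given.
CDKN1A, chr6:36678464-36678763, plus strand: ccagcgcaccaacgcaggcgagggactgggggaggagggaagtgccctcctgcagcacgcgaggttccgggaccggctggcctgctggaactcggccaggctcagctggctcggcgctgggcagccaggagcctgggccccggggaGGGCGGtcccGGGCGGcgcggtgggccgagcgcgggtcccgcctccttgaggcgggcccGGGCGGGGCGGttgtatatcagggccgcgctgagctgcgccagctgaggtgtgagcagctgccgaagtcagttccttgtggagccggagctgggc
MTAP, chr9:21802386-21802685, plus strand: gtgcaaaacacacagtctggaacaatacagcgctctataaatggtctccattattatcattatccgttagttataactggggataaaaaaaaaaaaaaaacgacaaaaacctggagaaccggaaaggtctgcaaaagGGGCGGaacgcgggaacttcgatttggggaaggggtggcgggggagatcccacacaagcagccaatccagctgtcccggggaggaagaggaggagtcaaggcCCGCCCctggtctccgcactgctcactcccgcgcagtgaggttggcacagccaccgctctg
CDKN2A, upstream start, chr9:21995275-21995574, minus strand: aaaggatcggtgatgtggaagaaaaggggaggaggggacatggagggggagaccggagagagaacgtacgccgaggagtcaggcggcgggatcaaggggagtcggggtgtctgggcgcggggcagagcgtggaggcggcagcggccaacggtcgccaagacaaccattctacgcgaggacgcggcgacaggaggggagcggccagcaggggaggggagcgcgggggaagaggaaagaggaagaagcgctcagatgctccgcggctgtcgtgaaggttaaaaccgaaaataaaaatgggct
CDKN2A, downstream start, chr9:21974808-21975107, minus strand: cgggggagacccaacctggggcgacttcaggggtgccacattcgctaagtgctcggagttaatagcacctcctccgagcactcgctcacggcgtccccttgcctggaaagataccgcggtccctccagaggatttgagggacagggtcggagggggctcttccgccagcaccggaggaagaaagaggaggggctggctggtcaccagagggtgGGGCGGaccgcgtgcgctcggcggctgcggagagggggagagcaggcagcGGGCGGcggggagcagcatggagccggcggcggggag

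The CDKN1A window held 4 GC boxes, of which a pair overlap, the MTAP window 2, the upstream CDKN2A window 0 and the downstream one 2, and 45.0% of 35116 promoter windows of the same length held at least 1 on either strand. The MTAP window also held the letters of a CCAAT box (CCAAT, in 34.6% of windows) and of a TATA box (TATAAA, in 11.5%). Neither was found in the other 3 windows. Matches were counted anywhere in a window, and the TATAAA of MTAP lies near the upstream end, far from the transcript start. Whether it acts as a TATA box was not tested. The E2F forms TTTCGCGC (0.515% of windows) and TTTGGCGC (0.652%) and the E-box CACGTG (7.26%) had no match in these 4 windows on either strand. CpG dinucleotides numbered 29 in the CDKN1A window, 15 in the MTAP window and 28 and 26 in the upstream and downstream CDKN2A windows, where the median of all windows is 14.

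The arrays were examined before the members. Median signals of 69.3 to 79.0 were found on the MALT1-labelled arrays, against 64.1 to 68.2 on the mock-labelled arrays. The 3 control probe sets for the bacterial trp gene read at most 17.6, and a probe set at or below that level on all 3 arrays of a group is called dim there. MALT1 replicate 3 carried that highest control signal and the fewest probe sets at or below it, 25.6% against 31.7% to 33.3% on the other 5 arrays. As a check of the RNA, 3′ signal was divided by 5′ signal for control probe sets of ACTB and GAPDH. The ACTB ratio was 3.60 to 4.46 on the MALT1-labelled arrays, highest on replicate 3, and 3.59 to 3.98 on the mock-labelled arrays. The GAPDH ratio was 0.95 to 1.12 over all 6 arrays. The transcript of MALT1 itself was lower on the MALT1-labelled arrays in its probe set 210017_at, with signals of 128, 124 and 107 there against 282, 242 and 236 on the mock-labelled arrays (difference in log2(signal + 1) −1.08 ± 0.12 SE, limma adjusted p = 0.0022). A second, 208309_s_at, was also lower (log2 difference −0.47, adjusted p = 0.0104), and the third, 210018_x_at, did not pass (−0.28, adjusted p = 0.0969). This goes against the labels, so groups are named by label throughout. Probes outside a transfected cDNA would not measure it, but whether these MALT1 probes lie outside it was not tested. Markers of luminal breast epithelium and of squamous epithelium also differed between the groups, although HSC2 is a squamous carcinoma line. All 8 luminal breast epithelium markers were higher on the MALT1-labelled arrays (summed signal 74174 to 82620 against 8574 to 9309 on the mock-labelled arrays). Of these 8, 3 were dim on the mock-labelled arrays. KRT19 averaged 12414 on the MALT1-labelled arrays against 1.25 on the mock-labelled arrays, TFF1 15491 against 11.4 and FOXA1 739 against 9.86. KRT18, the brightest of the 8 on the mock-labelled arrays, averaged 18654 against 6964. All 6 measured of 8 squamous markers were lower (summed signal 6788 to 6804 on the MALT1-labelled arrays against 32459 to 34598 on the mock-labelled arrays). KRT5 and KRT14, the keratins that define squamous basal cells, averaged 1003 and 3486 on the MALT1-labelled arrays and 5593 and 12270 on the mock-labelled arrays. These marker differences coincided with the label on all 6 arrays. Their part in the results that follow was not tested and cannot be told apart from that of the label. Of 6 fibroblast, 5 leukocyte and 4 endothelial markers, 0, 2 and 0 differed, with summed signals of at most 249, 384 and 42.4 on any array.

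Across all 20 member probe sets, 10 passed an adjusted p under 0.05, 3 of them higher and 7 lower on the MALT1-labelled arrays. The higher were 1 each of CDKN1A, CDKN1B and CDKN1C, and the lower were 3 of MTAP and 2 each of CDKN2A and RB1. By the brightest probe set of each gene, 6 of the 8 genes passed, against 40.4% of all genes. Of all probe sets on the array 35.6% passed, 18.6% higher and 17.0% lower. The groups did not overlap in 14 of the 20 member probe sets and in 49.7% of all probe sets. The members were chosen with earlier results of these data known, so these shares are not an independent comparison. Differences were thus common across the array, and the size of each member's difference is given against all probe sets. The median difference in log2(signal + 1) was −0.47 over the 20 member probe sets and 0.08 over all probe sets. The value over all probe sets was −0.05 after centring each array on its median. With that centring 1 member probe set was higher and 7 lower, and after quantile normalization 2 and 7. No filter on low signal was applied. Of the 20, 5 were dim in both groups, and none of these passed.

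**Figure D1:**
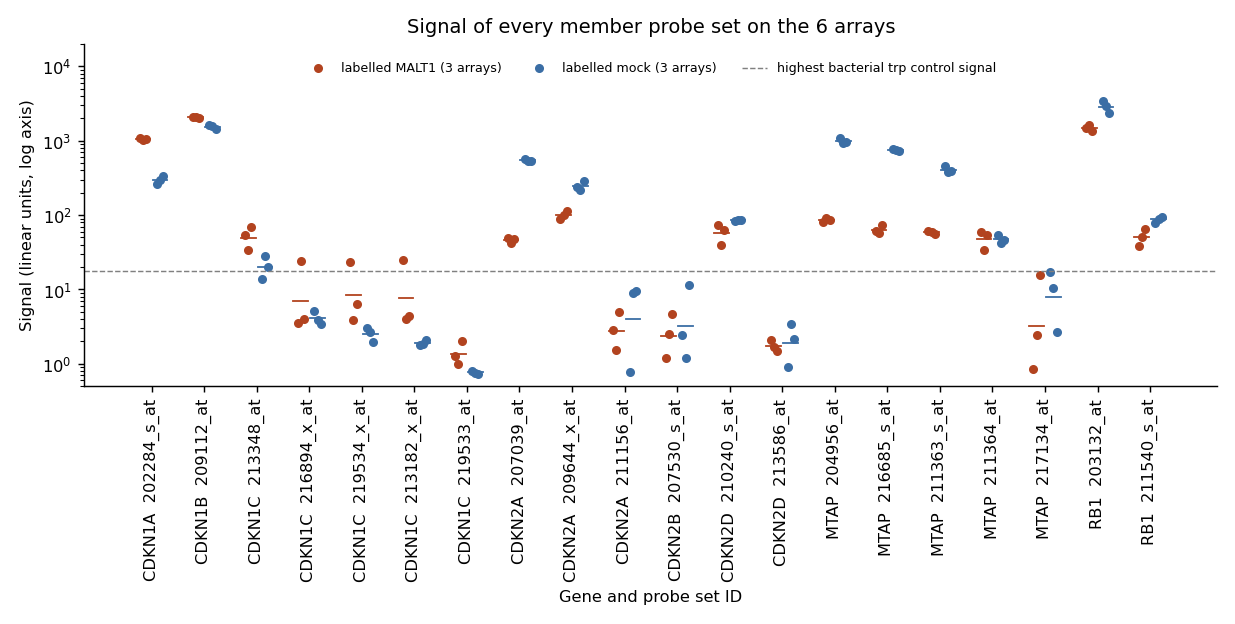
Signal of each of the 20 member probe sets (vertical axis, linear units on a log scale) on the 3 MALT1-labelled and 3 mock-labelled arrays; points are arrays, short bars are geometric means and the dashed line is the dim level of 17.6. MTAP and CDKN2A probe sets separate furthest, with 42 to 93 on the MALT1-labelled arrays in probe sets 204956_at and 207039_at against 528 to 1098 on the mock-labelled arrays.

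Of the CIP/KIP inhibitors, CDKN1A, which encodes the inhibitor p21, was clearly higher on the MALT1-labelled arrays. Its only probe set, 202284_s_at, read 1092, 1029 and 1059 there against 262, 299 and 338 on the mock-labelled arrays. The lowest signal with the MALT1 label was thus far above the highest with the mock label. CDKN1A rose 3.55-fold (log2 difference 1.83 ± 0.12 SE, adjusted p = 0.000362), and 5.85% of all probe sets rose by at least as much. It passed under all 12 alternative settings, with log2 differences of 1.70 to 1.92.

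CDKN1B encodes p27, which is controlled largely by protein turnover. Its only probe set, 209112_at, read 2089, 2075 and 2050 on the MALT1-labelled arrays against 1623, 1565 and 1444 on the mock-labelled arrays. The groups did not overlap, but the rise was small, 1.34-fold (log2 difference 0.43 ± 0.09 SE, adjusted p = 0.0151), and 32.4% of all probe sets rose by at least as much. The call was lost after median centring (CDKN1B log2 difference 0.30, adjusted p = 0.0961). It was also lost without MALT1 replicate 1 (adjusted p = 0.0567), MALT1 replicate 2 (0.0531) or mock replicate 2 (0.0537).

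CDKN1C encodes p57, an imprinted inhibitor of the CIP/KIP family. Its brightest probe set, 213348_at, read 53.4, 33.6 and 68.1 on the MALT1-labelled arrays against 13.8, 27.8 and 20.3 on the mock-labelled arrays. The groups lay apart by a narrow margin at these low signals (2.42-fold, log2 difference 1.28 ± 0.36 SE, adjusted p = 0.0451). The CDKN1C call was lost after median centring (adjusted p = 0.0537), after quantile normalization (0.0509), and without MALT1 replicate 1 (0.12), MALT1 replicate 3 (0.111), mock replicate 1 (0.114) or mock replicate 3 (0.112).

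The other 4 probe sets of CDKN1C were dim on all mock-labelled arrays and did not pass. In 3 of them a single MALT1-labelled array stood above the dim level: replicate 1 read 25.0 in 213182_x_at and 23.2 in 219534_x_at, and replicate 2 read 24.1 in 216894_x_at. The remaining arrays read 6.45 or less in these CDKN1C probe sets. The first of them passed without MALT1 replicate 1, the array that stood out (log2 difference 0.83, adjusted p = 0.0113), where all 5 arrays left were dim, so no fold is given. The fourth, 219533_at, read 2.03 or less on all 6 arrays.

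Of the INK4 inhibitors, CDKN2A was much lower on the MALT1-labelled arrays. Its probe set 207039_at read 49.7, 41.9 and 47.8 there against 574, 528 and 540 on the mock-labelled arrays. Signals within each group lay close together. Those on the MALT1-labelled arrays remained above the dim level of 17.6 but below the median signal of these arrays, 69.3 to 79.0. CDKN2A fell 11.6-fold in this probe set (log2 difference −3.53 ± 0.10 SE, adjusted p = 5.68e-05), and 0.329% of all probe sets fell by at least as much.

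The second CDKN2A probe set, 209644_x_at, read 87.6, 101 and 113 on the MALT1-labelled arrays against 239, 216 and 286 on the mock-labelled arrays. It fell 2.44-fold (log2 difference −1.29 ± 0.16 SE, adjusted p = 0.00271), so both probe sets moved the same way by different amounts. Probe sets whose ID ends in x_at can bind transcripts of other genes, and probe positions were not analysed here. The transcripts from the 2 CDKN2A starts share their later exons, so the share of p16INK4a and ARF in these signals cannot be told apart. The third, 211156_at, was dim on all 6 arrays, with 4.91 or less on the MALT1-labelled arrays and 9.66 or less on the mock-labelled arrays. Both CDKN2A calls held under all 12 alternative settings, with log2 differences of −3.66 to −3.17 for 207039_at and −1.41 to −1.17 for 209644_x_at.

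CDKN2B encodes p15, an inhibitor induced by TGF-beta, and lies next to CDKN2A. Its only probe set, 207530_s_at, read 1.18, 2.51 and 4.62 on the MALT1-labelled arrays against 2.45, 1.19 and 11.4 on the mock-labelled arrays. CDKN2B was therefore dim in both groups, and no fold is given.

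CDKN2D encodes p19INK4d. Its brighter probe set, 210240_s_at, read 73.5, 39.7 and 62.7 on the MALT1-labelled arrays against 84.4, 86.9 and 84.8 on the mock-labelled arrays. The groups did not overlap, but the MALT1-labelled arrays scattered widely and CDKN2D did not pass (log2 difference −0.58 ± 0.24 SE, 95% interval −1.19 to 0.03, adjusted p = 0.131). The interval includes a fall by more than a factor of 2 as well as no difference. The other CDKN2D probe set, 213586_at, was dim on all 6 arrays, with 3.38 or less on each.

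MTAP was lower on the MALT1-labelled arrays in 3 of its 5 probe sets, in the brightest by nearly the same factor as CDKN2A 207039_at. Its brightest probe set, 204956_at, read 80.1, 92.7 and 85.0 there against 1098, 924 and 950 on the mock-labelled arrays. MTAP fell 11.4-fold in this probe set (log2 difference −3.51 ± 0.11 SE, adjusted p = 6.81e-05), and 0.342% of all probe sets fell by at least as much.

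In 216685_s_at MTAP read 61.1, 57.8 and 73.1 on the MALT1-labelled arrays against 768, 741 and 721 on the mock-labelled arrays, an 11.5-fold fall (log2 difference −3.52 ± 0.12 SE, adjusted p = 6.94e-05). In 211363_s_at it read 61.0, 59.5 and 55.6 on the MALT1-labelled arrays against 454, 384 and 394 on the mock-labelled arrays, a 6.88-fold fall (log2 difference −2.78 ± 0.11 SE, adjusted p = 9.01e-05). The fourth, 211364_at, read 59.4, 33.6 and 54.8 on the MALT1-labelled arrays against 54.0, 42.7 and 46.1 on the mock-labelled arrays. Here the groups overlapped and MTAP did not pass (log2 difference 0.01 ± 0.25 SE, 95% interval −0.62 to 0.64, adjusted p = 0.974). The fifth, 217134_at, was dim on all 6 arrays. The probe sets of MTAP thus disagreed, but 211364_at was low in both groups, below the median signal of every array (64.1 to 79.0). Why it did not differ was not tested. The 3 MTAP calls held under all 12 alternative settings.

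RB1, the substrate of the kinases that these inhibitors restrain, was lower on the MALT1-labelled arrays in both of its probe sets. In 203132_at it read 1506, 1618 and 1363 there against 3435, 2935 and 2344 on the mock-labelled arrays. The groups did not overlap, with an SD of 128 on the MALT1-labelled arrays and 546 on the mock-labelled arrays (n = 3 each). RB1 fell 1.92-fold in this probe set (log2 difference −0.94 ± 0.17 SE, adjusted p = 0.0104), and 12.3% of all probe sets fell by at least as much. The call held under all 12 alternative settings.

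The dimmer RB1 probe set, 211540_s_at, read 38.6, 50.8 and 64.8 on the MALT1-labelled arrays against 78.0, 89.7 and 95.4 on the mock-labelled arrays (1.72-fold lower, log2 difference −0.79 ± 0.21 SE, adjusted p = 0.0399). This RB1 call was lost when MALT1 replicate 1 (adjusted p = 0.0702), MALT1 replicate 2 (0.0999), mock replicate 1 (0.0738), mock replicate 2 (0.112) or mock replicate 3 (0.116) was left out.

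**Figure D2:**
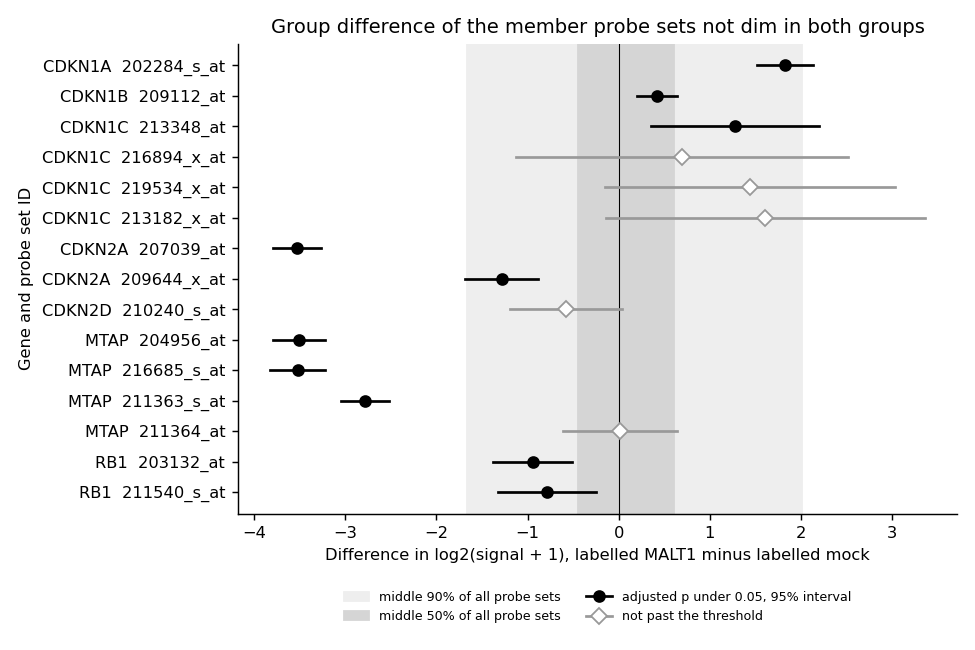
Difference in log2(signal + 1), labelled MALT1 minus labelled mock, for the 15 member probe sets that were not dim in both groups (points, with 95% intervals from the fit); filled circles passed an adjusted p under 0.05. The darker band holds the middle 50% of all probe sets (−0.45 to 0.61) and the lighter band the middle 90% (−1.66 to 2.01), and CDKN2A 207039_at and 3 MTAP probe sets lie below both.

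The genes around the 9p21 members were compared by gene order in RefSeq, taking the 4 nearest measured genes on each side and the 1 between. Of these 9 neighbours, 0 rose, 5 fell and 4 did not pass, where 19.2% of all genes fell. On the side of MTAP, the interferon genes IFNA1, IFNA8 and IFNA2 were dim in both groups, as was the antisense gene CDKN2A-AS1 between MTAP and CDKN2A. KLHL9, an adaptor of a ubiquitin ligase, read 744 ± 23.4 on the MALT1-labelled arrays and 1353 ± 65.9 on the mock-labelled arrays (mean ± SD, n = 3 each, as for all such values that follow; log2 difference −0.86 ± 0.09 SE, adjusted p = 0.00133). On the side of CDKN2B, the RNA-binding protein gene ELAVL2 fell to 45.6 ± 9.81 on the MALT1-labelled arrays, against 344 ± 28.1 on the mock-labelled arrays (log2 difference −2.91 ± 0.19 SE, adjusted p = 0.000336). Beyond it CAAP1, PLAA and IFT74 fell by 0.71, 0.80 and 0.65 on the log2 scale. IFT74 lost its call without mock replicate 1 (adjusted p = 0.0572). In their brightest probe sets MTAP and CDKN2A thus fell by more than KLHL9 and the 3 genes beyond ELAVL2, with no test of that difference, whereas CDKN2A 209644_x_at fell by 1.29 on the log2 scale and MTAP 211364_at did not pass (0.01).

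Around RB1 on chromosome 13, 0 of 8 neighbours rose, 4 fell and 4 did not pass, where 19.2% of all genes fell. LPAR6, a lysophosphatidic acid receptor gene that lies inside an intron of RB1, read 27.9 ± 9.06 on the MALT1-labelled arrays and 136 ± 8.38 on the mock-labelled arrays (log2 difference −2.29 ± 0.24 SE, adjusted p = 0.00171). RCBTB2 fell by 1.79, ITM2B by 1.39 and FNDC3A by 0.79 on the log2 scale. SUCLA2 and MED4 did not pass (log2 differences −0.41 and −0.35), nor did HTR2A (0.03) and CYSLTR2 (0.79). Both the RB1 probe sets lay within the range of these 8 neighbours (−2.29 to 0.79).

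**Figure D3:**
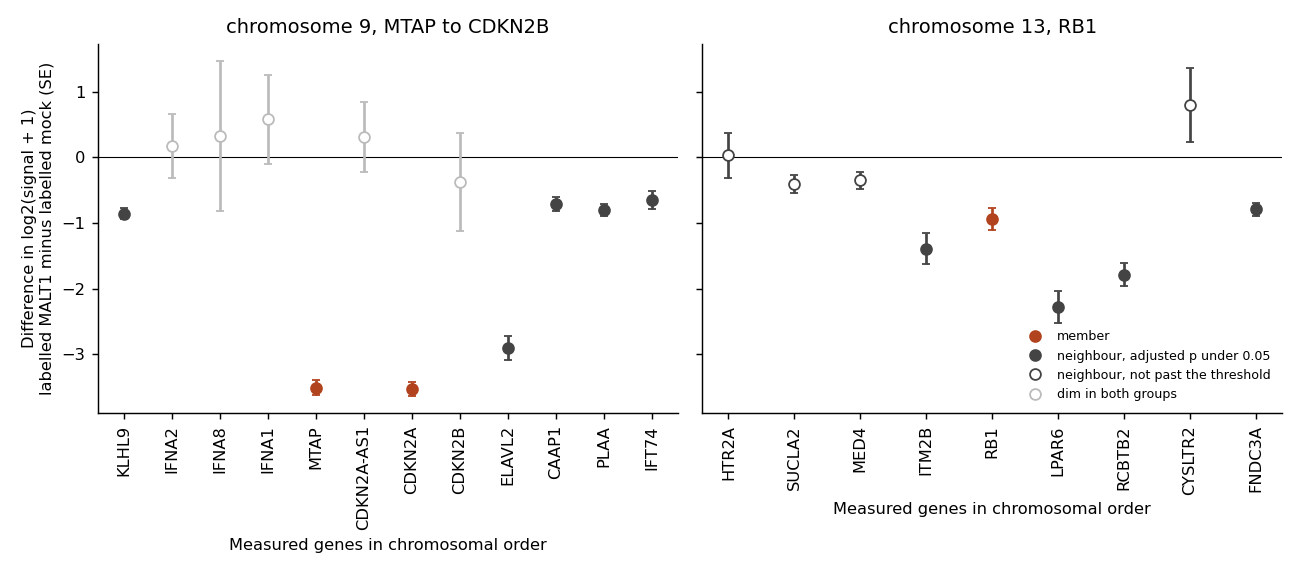
Difference in log2(signal + 1), labelled MALT1 minus labelled mock, with its SE (vertical axis) for measured genes in chromosomal order around MTAP, CDKN2A and CDKN2B (left) and RB1 (right), by the brightest probe set of each gene. Members are in orange, except CDKN2B, which is pale. Filled points passed an adjusted p under 0.05 and pale points were dim in both groups. MTAP (−3.51) and CDKN2A (−3.53) are the lowest points on the left and LPAR6 (−2.29) on the right.

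The kinases and cyclins that the inhibitors act on changed in both directions. Lists of pathway genes use the brightest probe set of each gene, and 40.4% of all genes passed, 21.1% higher and 19.2% lower. Of 15 cyclin and CDK genes, 3 rose, 7 fell and 5 did not pass, with a median log2 difference of −0.22 against 0.08 over all genes. The D-type cyclin CCND2 fell to 571 ± 29.8 on the MALT1-labelled arrays, against 5822 ± 156 on the mock-labelled arrays (log2 difference −3.35 ± 0.08 SE, adjusted p = 5.35e-05). The kinases that INK4 proteins bind moved in opposite directions. CDK4 rose to 3709 ± 79.4 on the MALT1-labelled arrays, against 2090 ± 86.0 on the mock-labelled arrays (log2 difference 0.83 ± 0.08 SE, adjusted p = 0.00129). CDK6 read 26.6, 9.75 and 8.05 on the MALT1-labelled arrays against 118, 63.1 and 47.6 on the mock-labelled arrays, so it fell without overlap, to signals near the dim level (log2 difference −2.37 ± 0.56 SE, adjusted p = 0.025). The CDK6 call was lost without MALT1 replicate 2 (adjusted p = 0.0794), MALT1 replicate 3 (0.0706), mock replicate 1 (0.0701) or mock replicate 2 (0.0684). Cyclin E1 (CCNE1) rose by 0.87 and cyclin H (CCNH), part of the kinase that activates CDKs, fell by 0.86 on the log2 scale.

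Among RB1's relatives and partners, 11 measured genes for pocket proteins and E2F-DP factors, 4 rose, 2 fell and 5 did not pass (median log2 difference 0.02). RBL1, which encodes the pocket protein p107, fell to 238 ± 28.1 on the MALT1-labelled arrays, against 785 ± 137 on the mock-labelled arrays (log2 difference −1.71 ± 0.17 SE, adjusted p = 0.00133). Its relative RBL2 did not pass, at 843 ± 99.0 on the MALT1-labelled arrays and 834 ± 138 on the mock-labelled arrays. The repressor E2F6 rose to 1061 ± 29.3, against 306 ± 19.3 on the mock-labelled arrays (log2 difference 1.79 ± 0.09 SE, adjusted p = 0.000165). E2F3, an activator, rose by 0.68, and TFDP1, the dimerisation partner of E2F proteins, fell by 0.96 on the log2 scale. E2F1 did not pass (79.6 ± 8.53 on the MALT1-labelled arrays and 88.7 ± 20.9 on the mock-labelled arrays).

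Of 17 measured E2F target genes of S phase, 8 rose, 3 fell and 6 did not pass, with a median log2 difference of 0.27. The helicase subunit gene MCM3 rose by 0.82 and thymidylate synthase (TYMS) by 0.58 on the log2 scale, and CCNE1, also listed with the cyclins, rose by 0.87. The ribonucleotide reductase subunit RRM1 fell to 4725 ± 243 on the MALT1-labelled arrays, against 9714 ± 212 on the mock-labelled arrays (log2 difference −1.04 ± 0.08 SE, adjusted p = 0.000688).

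How many genes for the turnover of p27 protein passed depended on the setting. In the main fit, of 9, 0 rose, 1 fell and 8 did not pass (median log2 difference 0.01), where 40.4% of all genes passed. The ubiquitin ligase subunit FBXW7, which acts on cyclin E, fell by 0.65 on the log2 scale (adjusted p = 0.00688). SKP2, the subunit that recognises p27, read 1328 ± 105 on the MALT1-labelled arrays and 1684 ± 146 on the mock-labelled arrays and did not pass (log2 difference −0.34 ± 0.11 SE, adjusted p = 0.0722). The same held for its partner SKP1 (log2 difference 0.28, adjusted p = 0.0858) and for COPS5 (−0.20, adjusted p = 0.107). With dim probe sets left out, SKP2 (adjusted p = 0.0304), SKP1 (0.0348) and COPS5 (0.0372) passed, and 4 of the 9 genes were called.

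Of 22 measured transcriptional regulators of the CIP/KIP and INK4 genes, 7 rose, 8 fell and 7 did not pass (median log2 difference 0.03). The T-box repressors TBX2 and TBX3, known to repress CDKN1A and the ARF transcript of CDKN2A, had the largest rises. CDKN1A was itself 3.55-fold higher on the MALT1-labelled arrays, and a link of TBX2 or TBX3 to either gene was not tested. TBX2 read 637 ± 67.7 on the MALT1-labelled arrays and 8.36 ± 2.65 on the mock-labelled arrays, at least 35.98-fold higher (adjusted p = 0.000103). TBX3 read 124 ± 3.11 on the MALT1-labelled arrays and 1.74 ± 0.63 on the mock-labelled arrays, at least 7.01-fold higher (adjusted p = 6.81e-05), both bounds being taken against the dim level of 17.6. ETS2, an activator of CDKN2A, and ID1, its antagonist, both fell, by 1.91 and 1.75 on the log2 scale.

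Around MTAP in metabolism, 12 genes of methionine salvage, polyamine synthesis and methyl transfer were measured, of which 3 rose, 1 fell and 8 did not pass (median log2 difference 0.01). ODC1, the first enzyme of polyamine synthesis, rose to 11085 ± 176 on the MALT1-labelled arrays, against 4470 ± 172 on the mock-labelled arrays (log2 difference 1.31 ± 0.08 SE, adjusted p = 0.000285). ADI1 and ENOPH1, enzymes of the salvage pathway after MTAP, rose by 0.85 and 0.41 on the log2 scale, and spermine synthase (SMS) fell by 0.77. The ENOPH1 call was lost after median centring (log2 difference 0.28, adjusted p = 0.14) and without MALT1 replicate 2 (adjusted p = 0.0537) or mock replicate 2 (0.0602). PRMT5, the methyltransferase that the MTAP substrate inhibits, did not pass (1051 ± 93.1 on the MALT1-labelled arrays and 902 ± 31.3 on the mock-labelled arrays, log2 difference 0.22).

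**Figure D4:**
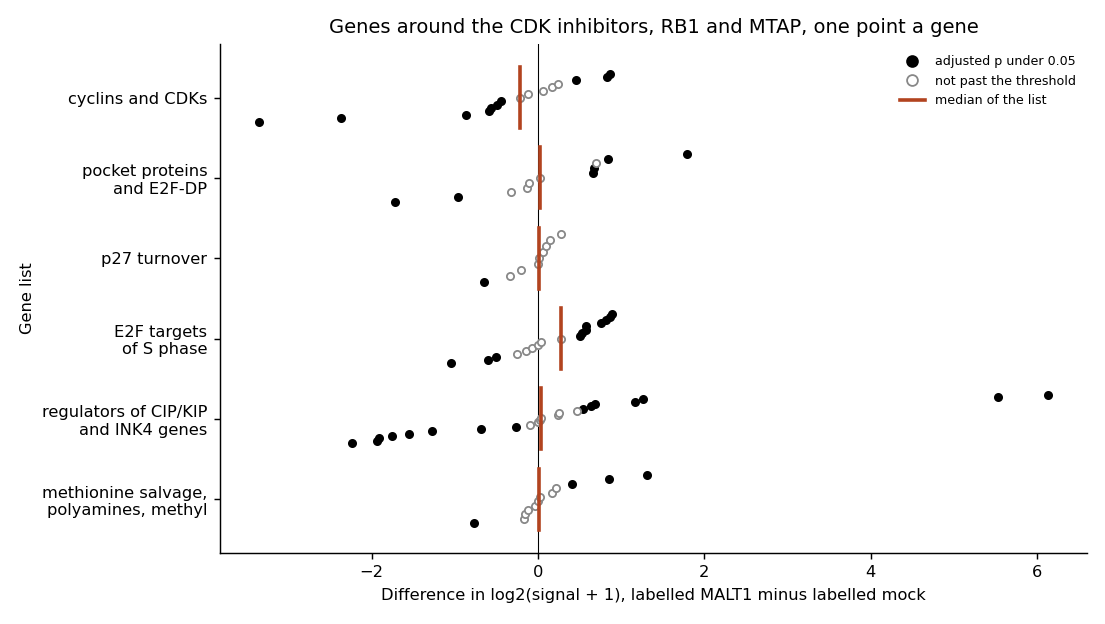
Difference in log2(signal + 1), labelled MALT1 minus labelled mock (horizontal axis), for each measured gene of 6 pathway lists, 1 point a gene; filled points passed an adjusted p under 0.05 and the bar is the list's median. All 6 lists hold genes on both sides of 0, with medians from −0.22 (cyclins and CDKs) to 0.27 (E2F target genes of S phase).

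Genes with profiles most like those of the 3 members with the smallest adjusted p were named by root mean square distance between log2 values centred on their mean over the 6 arrays, among 8677 other genes above the dim level on all arrays of a group. This distance mostly reflects an equal difference between the groups. For CDKN2A they were CNN3 (distance 0.12), CCND2 (0.13) and NT5E (0.13). For MTAP they were NT5E (0.09), C1orf116 (0.10) and CNN3 (0.10), and for CDKN1A they were BAG1 (0.03), P4HTM (0.08) and IDH1 (0.08).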

How the data were processed

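Expression was measured in 6 samples on single-colour Affymetrix arrays, 3 labelled MALT1 and 3 labelled mock, grouped by sample title. The authors deposited 1 linear intensity (signal) per probe set and array. From the values, each array had been scaled to a mean of 500.2 after trimming 2% of probe sets at each end. The sources used here name no software for this, and the number of arrays limits the precision. Of 22277 probe sets, 62 controls were left out and 22215 tested as log2(signal + 1), where the added 1 shrinks differences of dim genes. Symbols came from the platform annotation, updated by gene ID from RefSeq (19052 of 19064 single-symbol probe sets matched). 1043 probe sets had several symbols and 2108 none.

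limma 3.58.1 (R 4.3.3; lmFit, eBayes, group as the only term, MALT1 minus mock) gave two-sided p-values, adjusted over all probe sets by the Benjamini-Hochberg method, and was tested on simulated data. An exact permutation test of 3 against 3 cannot go below p = 0.1 and was not used. Named genes were all members with every probe set, MALT1, up to 4 genes a pathway list with the smallest adjusted p, the 4 nearest measured genes on each side of a member, and the 3 genes most like a member; CDK6, RBL2, E2F1 and PRMT5 were named after their values were seen. The members, the dim level and the lists were chosen with earlier results of these data known. A seventh list is not reported here, but its genes stay in the total of pathway-list genes called. Same-numbered arrays did not deviate together (correlations of 0.04, 0.01 and 0.05).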

Additional observations from a re-analysis of the deposited data

How the results depend on the processing

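The count of member probe sets called was 8 to 10 under the 12 alternatives, against 10, and the number of pathway-list genes called was 45 to 67 under 13, against 56. All probe sets called numbered 5808 to 9042, against 7917. Of the 10 member calls, 7 held under all 12 and 3 were lost under some, as given beside CDKN1B, CDKN1C and RB1. The replicate block (same replicate numbers in both groups) left 8 of the 10 member calls, losing CDKN1B (adjusted p = 0.0645) and CDKN1C 213348_at (0.125), brought all calls to 5808 and brought the cyclin and CDK genes called to 6, against 10. Not every array correlated best with its own number. The p27 turnover genes called were 1, but 2 with pseudocount 16, 4 with dim probe sets left out, 4 with limma's trend and 2 with the probe sets of a gene averaged. MTAP 211364_at changed sign with median centring (−0.11), quantile normalization (−0.18) and without MALT1 replicate 1 (−0.14), MALT1 replicate 3 (−0.08), mock replicate 2 (−0.06) or mock replicate 3 (−0.0048), with 0.26 as the highest value when an array was left out. CDKN1C 216894_x_at ran from −0.10 without MALT1 replicate 2 to 1.14 without MALT1 replicate 1. RBL2 changed sign with median centring (−0.11) and ran from −0.064 to 0.15 when an array was left out, and E2F1 from −0.27 to 0.044. The cause was not tested. Signals near the trp control level limit what can be said of CDKN1C, CDKN2B and CDKN2D.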

Other observations

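Beside the other members on their chromosomes, genes passed in numbers to be read against the 40.4% of all genes that passed. Around CDKN1A on chromosome 6, 3 of 8 neighbours rose, 0 fell and 5 did not pass. MTCH1, a mitochondrial outer membrane protein gene, read 5401 ± 140 on the MALT1-labelled arrays and 2744 ± 115 on the mock-labelled arrays (mean ± SD, n = 3 each; log2 difference 0.98 ± 0.08 SE, limma adjusted p = 0.000776). The kinase gene STK38 rose by 0.86 and KCTD20 by 0.61 on the log2 scale, and SRSF3, the nearest measured gene on the side opposite MTCH1, did not pass (log2 difference −0.03). Around CDKN1B on chromosome 12, 1 of 8 rose, 3 fell (LRP6, APOLD1 and GPRC5A) and 4 did not pass. HEBP1 rose by 0.74, whereas the retinoic acid-induced receptor gene GPRC5A fell to 589 ± 25.3 on the MALT1-labelled arrays, against 1214 ± 44.1 on the mock-labelled arrays (log2 difference −1.04 ± 0.08 SE, adjusted p = 0.00068).

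Around the imprinted gene CDKN1C on chromosome 11, 1 of 8 neighbours rose, 1 fell and 6 did not pass. NAP1L4, a histone chaperone gene, read 546 ± 64.2 on the MALT1-labelled arrays and 1069 ± 63.5 on the mock-labelled arrays (log2 difference −0.97 ± 0.12 SE, adjusted p = 0.00281), and PHLDA2, an imprinted growth regulator, did not pass. Around CDKN2D on chromosome 19, 2 of 8 rose, 0 fell and 6 did not pass. AP1M2, an epithelial clathrin adaptor subunit, rose by 0.92 on the log2 scale (adjusted p = 0.000988), and PDE4A, which was dim on the mock-labelled arrays, was at least 5.14-fold higher (adjusted p = 0.0167), a call lost without MALT1 replicate 1 (0.0506) or MALT1 replicate 3 (0.0553).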
